A study of Mus musculus with 8 samples.

Results

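*Capn11* and *Uts2b* are 2 genes of the 49585 listed in the count table for the C57BL/6J (B) genome, and they were selected on their read counts in these same libraries, low in all brains and higher in those of newborns whose mothers drank cadmium (Cd). Both passed the filter on low counts, as did 23113 genes in all. RNA-seq had been performed on the whole brains of 8 female hybrids, dissected on postnatal day 1, of C57BL/6 mothers and CAST/EiJ fathers. The control group held 4 pups whose mothers received 0 ppm CdCl2 in drinking water and the exposed group 4 pups whose mothers received 50 ppm before and during gestation, each pup from a different litter. The libraries were strand-specific, made from poly(A) RNA of pulverized brain, and read as single ends of 125 bases. All 8 pups shared the F1 hybrid background and the sex.

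*Capn11* encodes calpain 11, a member of the calpains, which are cysteine proteases switched on by calcium that cut their substrates at a limited number of sites. The classical calpains encoded by *Capn1* and *Capn2* work with a small subunit from *Capns1* and are held back by calpastatin, the product of *Cast*, whereas *Capn11* is known in mice mainly for its transcripts in the testis. *Uts2b* encodes the precursor of urotensin II-related peptide, a short cyclic peptide that shares its ring with urotensin II, the product of *Uts2*, and acts on the same receptor, encoded by *Uts2r*. In the rodent nervous system this peptide is known from cholinergic motor neurons of the brainstem and spinal cord.

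*Capn11* (ENSMUSG00000058626) is annotated at chromosome 17, 45630204 to 45659325 (GRCm38, minus strand). The annotation gives it 2 transcripts, 1 of them protein-coding, with 2708 bases of exon in 23 blocks. *Uts2b* (ENSMUSG00000056423) is at chromosome 16, 27353322 to 27370239, also on the minus strand, with 1 transcript of 835 bases in 5 exons. No annotated gene on either strand overlapped the span of *Capn11* or *Uts2b*, so their counts do not depend on how the authors' counting treated overlapping genes. The promoter windows of both genes, of 300 bases each, are shown because both genes were higher in the same brains. Each runs 5′ to 3′ on the gene's own strand and ends 50 bases into the transcript, as taken from RefSeq for GRCm38.p6 (*Capn11*, chr17:45659260-45659559; *Uts2b*, chr16:27370190-27370489), and capitals mark the motif TATAAA on either strand.
Capn11: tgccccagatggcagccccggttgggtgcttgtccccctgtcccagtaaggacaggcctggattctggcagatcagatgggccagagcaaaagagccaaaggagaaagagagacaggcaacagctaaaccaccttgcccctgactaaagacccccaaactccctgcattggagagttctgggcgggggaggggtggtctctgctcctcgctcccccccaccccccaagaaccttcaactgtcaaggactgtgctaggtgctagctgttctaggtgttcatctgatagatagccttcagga
Uts2b: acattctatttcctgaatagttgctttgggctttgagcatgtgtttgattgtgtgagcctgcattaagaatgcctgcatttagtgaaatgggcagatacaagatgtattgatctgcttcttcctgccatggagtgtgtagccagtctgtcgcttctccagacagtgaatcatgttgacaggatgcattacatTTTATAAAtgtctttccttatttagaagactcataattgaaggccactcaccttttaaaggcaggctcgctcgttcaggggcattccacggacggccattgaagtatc

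The window of *Uts2b* held TATAAA 56 bases before the transcript start, in a run that overlaps a match on the other strand, and the window of *Capn11* held none. Of 32851 promoter windows of this length, 13.6% held this motif on either strand, which was chosen for the search after the *Uts2b* sequence had been read. The half-site AGGTCA bound by retinoic acid receptors, searched on both strands, was in neither window and in 16.3% of all windows. The metal response element cores TGCACNC and TGCGCNC, through which metallothionein genes respond to metals, were likewise in neither window and in 12.6% and 15.4% of all windows. A missing match says only that these letters do not occur in these 300 bases. The window of *Capn11* was 57.3% G and C with 3 CpG dinucleotides, that of *Uts2b* 43.0% with 5, and the median over all windows was 52.7% with 7.

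Reads counted on *Capn11* in the control brains were 2, 3, 3 and 4 (replicates 1 to 4), and in the exposed brains 29, 7, 29 and 39. Scaled to CPM, the reads of a gene for a fixed total of reads per library after TMM normalization of the totals, these were 0.0683, 0.112, 0.098 and 0.155 CPM in the controls and 1.02, 0.246, 1.03 and 1.72 CPM in the exposed brains. The groups did not overlap, and 50 ppm replicate 2 was the exposed brain nearest to the controls. The mean level went from 0.108 ± 0.036 without Cd to 1.00 ± 0.603 CPM with it (SD, n = 4 each), a ratio of 9.29.

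For *Uts2b* the control brains gave 4, 1, 2 and 3 reads, and the exposed brains 19, 17, 7 and 16. In CPM the controls lay at 0.137, 0.0372, 0.0653 and 0.116 and the exposed brains at 0.667, 0.597, 0.25 and 0.706. Again the groups did not overlap, but here the lowest exposed brain was 50 ppm replicate 3, in which *Capn11* was high. The mean level went from 0.0888 ± 0.0456 to 0.555 ± 0.208 CPM (SD, n = 4 each), a ratio of 6.25. Because both genes were chosen for this difference, it is given as a description only. Among all 23113 genes that passed the filter, 275 (1.19%) had each exposed brain above each control brain in CPM and 209 (0.904%) each below, and 4 (0.0173%) passed an adjusted p of 0.05 in edgeR's quasi-likelihood test. Neither *Capn11* nor *Uts2b* was among those 4. DESeq2 called *Capn11* but not *Uts2b*, and edgeR without a filter on low counts called both. These calls use the reads that chose the genes and are no test of them. In bulk brain RNA, more cells that express a gene cannot be told apart from more RNA per cell.

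**Figure D1:**
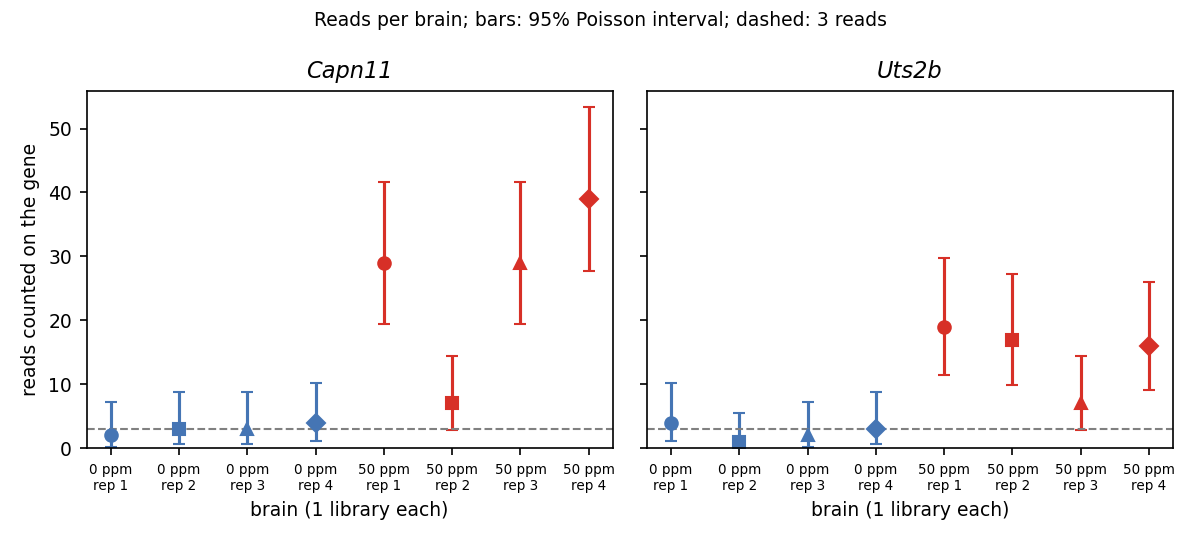
Reads counted on *Capn11* (left) and *Uts2b* (right) in each of the 8 brains, with the dose and replicate on the x axis and the number of reads on the y axis. Bars are 95% Poisson intervals for counting error, blue is 0 ppm, red is 50 ppm and the dashed line marks 3 reads, and the 4 control brains lie at 1 to 4 reads and the 4 exposed brains at 7 to 39.

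Total counts were between 22916434 and 30708087 reads per brain, and the limit behind a count of 0, taken as 3 reads, was 0.098 to 0.132 CPM. *Capn11* was above 3 reads in 1 of 4 control brains (replicate 4) and in 4 of 4 exposed brains. *Uts2b* was above 3 reads in 1 of 4 control brains as well (replicate 1) and in 4 of 4 exposed brains. The other control brains each had 1 to 3 reads of these genes, so none was at 0. Levels at or under 3 reads were not resolved at this depth. Per kilobase of exon, 3 reads correspond to 0.0362 to 0.0489 RPKM (CPM per kilobase of exon) for *Capn11* and to 0.117 to 0.158 RPKM for the shorter *Uts2b*.

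Summed over the 4 brains of a dose, *Capn11* had 12 reads at 0 ppm (95% exact Poisson interval 6.2 to 21.0) and 104 at 50 ppm (85.0 to 126). The corresponding sums for *Uts2b* were 10 (4.8 to 18.4) and 59 (44.9 to 76.1). On counting error alone, which is all that these intervals cover, the ratio of the doses had a 95% interval of 4.97 to 18.1 for *Capn11* and 3.13 to 13.5 for *Uts2b* (exact Clopper-Pearson limits). The brains that lay closest between the groups could not be separated in this way. For *Capn11*, 50 ppm replicate 2 (7 reads) over 0 ppm replicate 4 (4 reads) gave a CPM ratio of 1.59 with a counting interval of 0.403 to 7.39. For *Uts2b*, 50 ppm replicate 3 (7 reads) over 0 ppm replicate 1 (4 reads) gave 1.83 with an interval of 0.465 to 8.52.

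The spread among exposed brains differed between the genes. Reads of *Capn11* at 50 ppm had a variance of 7.03 times their mean, where counting error alone gives about 1, and those of *Uts2b* 1.92 times their mean. At 0 ppm the values were 0.222 and 0.667. Of the CPM of *Capn11* summed over the 8 brains, 38.7% lay in 50 ppm replicate 4 and 5.53% in 50 ppm replicate 2. The share of *Uts2b* was 27.4% in 50 ppm replicate 4, 25.9% in replicate 1, 23.2% in replicate 2 and 9.71% in replicate 3.

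Between 1 and 4 reads in each control brain and 7 or more in each exposed brain, these genes sat at the lower end of the measured range. Their mean CPM over all brains was above that of 32.4% of the filtered genes for *Capn11* and 28.1% for *Uts2b*. Only 4 of the 23113 filtered genes (0.0173%) had at most 4 reads in each control brain and at least 7 in each exposed brain, namely *Capn11*, *Uts2b*, *Hoxb7* and *Hoxb8*, and 1 gene (0.00433%) had the mirror pattern, *D630023F18Rik* with 11, 7, 7 and 7 reads at 0 ppm and 4, 2, 2 and 0 at 50 ppm. These bounds were taken from the values of *Capn11* and *Uts2b*, so the counts are a description. The set is not that of the 4 genes past the adjusted threshold in edgeR. *Hoxb7* and *Hoxb8*, posterior homeobox genes, had 50 ppm replicate 1 as their highest brain, with 45.0% and 37.8% of their summed CPM. The highest brain of *Capn11* was 50 ppm replicate 4. For *Uts2b*, 50 ppm replicates 4 and 1 held 27.4% and 25.9% (16 and 19 reads). Their counting intervals overlapped, so its highest brain was not resolved. In 0 ppm replicates 1 and 2 the *Hox* genes were at 0 reads, which allows up to 3, and *Capn11* had 2 and 3 reads and *Uts2b* 4 and 1.

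**Figure D2:**
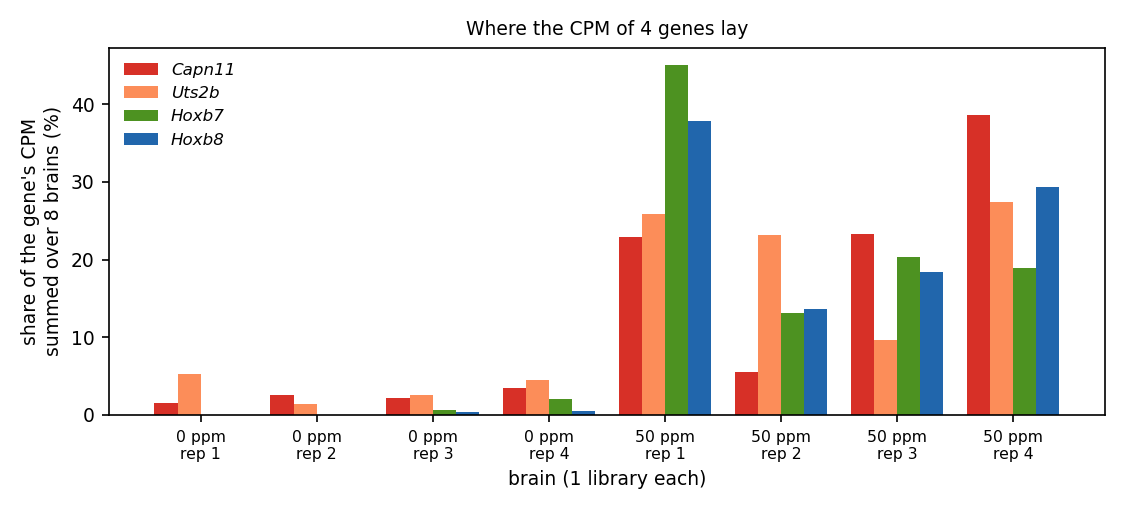
Share of each gene's CPM, summed over the 8 brains, that each brain held, in percent, for *Capn11*, *Uts2b*, *Hoxb7* and *Hoxb8*, with the dose and replicate on the x axis. *Capn11* reached its largest share in 50 ppm replicate 4 (38.7%), and the *Hox* genes theirs in 50 ppm replicate 1 (45.0% and 37.8%). *Uts2b* held 27.4% in 50 ppm replicate 4 and 25.9% in replicate 1, which counting error does not separate.

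The likeness of profiles across the 8 brains was measured as the summed overlap of the shares of CPM that each brain held, where 100% would be the same profile, over 19229 other genes with at least 20 reads in all. The overlap of *Capn11* with *Uts2b* was 74.2%, against a median of 52.7% for *Capn11* and 60.8% for *Uts2b* over all these genes, which put *Uts2b* at rank 25 for *Capn11* and *Capn11* at rank 165 for *Uts2b*. The 5 genes closest to *Capn11* were *1700093K21Rik* (90.6%), *Il7* (85.3%), which encodes a lymphocyte growth factor, *Ahsg* (81.5%), which encodes the serum protein fetuin-A, *Igfn1* (80.1%) and *Gm38642* (79.1%), with 23 to 34 reads each over all brains. The 5 closest to *Uts2b* were *Enpp6* (87.8%), which encodes a choline phosphodiesterase of newly formed oligodendrocytes, *Tnni3k* (86.8%), *Gm4409* (86.4%), *Ccl2* (86.1%), which encodes a chemokine for monocytes, and *Slc28a3* (84.5%), a nucleoside transporter gene. Of these, *Enpp6* alone was well counted, with 554 reads, and the other 4 had 25 to 36. Both *Capn11* and *Uts2b* were chosen for reads that lay mostly in the exposed brains, 89.7% and 85.5% of them. Their overlap above the median follows from that choice and is a description only. The doses are shared by all such profiles, and with so few reads the order among them is not settled.

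The table for the CAST/EiJ (C) genome holds 37192 rows whose identifiers the tables used here do not pair with *Capn11* or *Uts2b*. Its row closest in reads to *Uts2b*, MGP_CASTEiJ_G0021959, had 4, 1, 2 and 3 reads at 0 ppm and 18, 17, 7 and 16 at 50 ppm, a difference of 1 read in all, and the next closest row differed by 26 reads. The row closest to *Capn11*, MGP_CASTEiJ_G0023003, had 1, 1, 3 and 1 reads at 0 ppm and 26, 4, 21 and 30 at 50 ppm, which is 29 reads fewer in all, and the next closest differed by 56. These rows were picked for their likeness in reads, so that likeness is no evidence that the C genome alignment repeats the pattern. Both alignments use the same reads, so these rows add no further brains.

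Neither *Capn11* nor any other calpain system gene measured passed the edgeR test between doses, which few genes of any kind did. Of the 15 other genes listed, 14 passed the filter. In edgeR, adjusted by Benjamini-Hochberg over all genes, 0 of the 14 had an adjusted p under 0.05, where 0.0173% of all genes did. DESeq2 also called 0, and 1 gene, *Capn1*, had an unadjusted p under 0.05 with either tool. The median log2 fold change of the 14 was 0.04, with a range from -0.44 to 0.33, and that of all genes tested was -0.003. *Capn1* averaged 7.78 ± 1.66 CPM in control and 9.82 ± 1.35 CPM in exposed brains (SD, n = 4), which edgeR fitted as a log2 difference of 0.33 ± 0.15 (SE, adjusted p = 0.999). *Capn2*, the other classical large subunit, averaged 107 ± 0.765 against 108 ± 3.70 CPM (SD, n = 4), with a fitted log2 difference of 0.01 ± 0.06 (SE). The small subunit gene *Capns1* stood at 92.7 ± 11.3 and 94.1 ± 3.82 CPM (SD, n = 4) and the inhibitor gene *Cast* at 8.31 ± 1.03 and 8.80 ± 1.01 CPM (SD, n = 4). *Capn5* and *Capn7*, which encode calpains that lack the calmodulin-like domain of the classical ones, had log2 differences of 0.16 ± 0.09 and -0.09 ± 0.07 (SE) and did not pass the test. *Capns2*, a second small subunit gene, was at 0 reads in all 8 brains, which allows up to 3 reads in each.

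Per kilobase of exon, the level of *Capn11* was 0.0399 RPKM at 0 ppm and 0.371 RPKM at 50 ppm (means, n = 4). *Capn2* was at 16.9 and 17.0 RPKM and *Capn1* at 2.33 and 2.94 RPKM in the same groups. At 0 ppm the level of *Capn11* was within the range of other calpain genes of low count in the brain, *Capn8* (0.0299 RPKM), *Capn9* (0.0676 RPKM), *Capn12* (0.0218 RPKM) and *Capn13* (0.0324 RPKM). In no brain did any of these 4 genes exceed 7 reads. At 50 ppm their levels were 0.0217, 0.0641, 0.0241 and 0.0336 RPKM. *Capn11* in 50 ppm replicate 2, at 0.0908 RPKM, lay below *Capn9* in 50 ppm replicate 4, at 0.11 RPKM, and the other 3 exposed brains, at 0.376 to 0.635 RPKM, lay above each value of those 4 genes.

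The receptor of the *Uts2b* peptide was also of low count. Its gene *Uts2r* had 15, 19, 13 and 8 reads without Cd and 15, 10, 11 and 14 reads with Cd, so the groups overlapped. The log2 difference of *Uts2r* was -0.06 ± 0.36 (SE, adjusted p = 0.999 in edgeR). *Uts2*, which encodes urotensin II, had at most 2 reads in a brain, below the limit of 3 reads throughout, and no fold change is given for it. Per kilobase of exon, *Uts2b* was at 0.106 RPKM at 0 ppm and 0.664 RPKM at 50 ppm, and *Uts2r* at 0.287 and 0.277 RPKM (means, n = 4). By brain, *Uts2b* lay below *Uts2r* in each control brain, from 0.0446 against 0.415 RPKM in replicate 2 to 0.139 against 0.182 RPKM in replicate 4. It lay above *Uts2r* in each exposed brain, from 0.299 against 0.23 RPKM in replicate 3 to 0.715 against 0.206 RPKM in replicate 2, the narrowest and the widest gap. In replicate 3 these were 7 reads of *Uts2b* and 11 of *Uts2r*, and the control brains had 1 to 4 reads of *Uts2b*. The order by brain is therefore a description only, from the reads for which *Uts2b* was chosen.

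**Figure D3:**
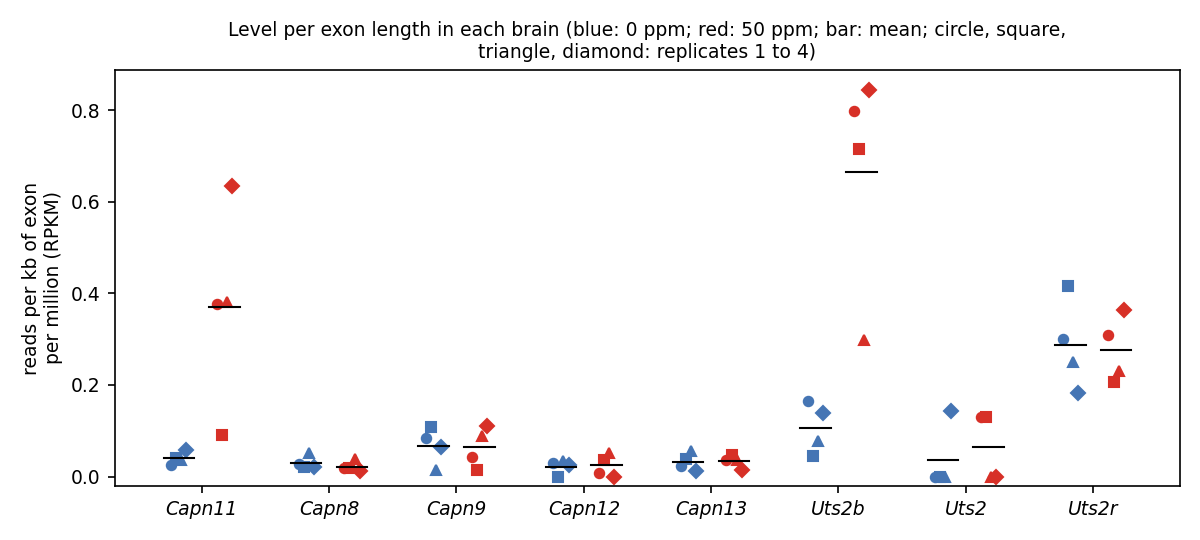
Level per exon length (RPKM) in each brain of *Capn11*, the 4 low-count calpain genes *Capn8*, *Capn9*, *Capn12* and *Capn13*, and *Uts2b*, *Uts2* and *Uts2r*, with blue for 0 ppm, red for 50 ppm, a bar for the mean of 4 and a marker shape for each replicate. The means of *Capn11* and *Uts2b* are 0.371 and 0.664 RPKM at 50 ppm and 0.0399 and 0.106 RPKM at 0 ppm, whereas the groups of the other 6 genes overlap.

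Of the 9 listed genes of urotensin and the related peptides somatostatin (*Sst*) and cortistatin (*Cort*) and their receptors, 9 passed the filter and 0 had an adjusted p under 0.05 with edgeR or with DESeq2, with 0 at an unadjusted p under 0.05 in either (DESeq2 gave no adjusted p for 1 of the 9). Over the 8 with more than 3 reads in a brain, which leaves out *Uts2*, the median log2 fold change was -0.08, 1 value was positive and 7 were negative. *Sst* averaged 74.6 ± 11.9 CPM in control and 73.0 ± 5.34 CPM in exposed brains (SD, n = 4). The largest difference of the 8 was that of *Cort*, at 1.92 ± 0.407 against 1.49 ± 0.572 CPM (SD, n = 4) and -0.35 ± 0.27 (SE) on the log2 scale. *Sstr2*, a somatostatin receptor gene, differed by -0.25 ± 0.14 (SE) and *Sstr5* by -0.26 ± 0.26 (SE) on the same scale.

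The nearest genes on each side of *Capn11* and *Uts2b* were compared between doses in the same fit. Of 12 neighbours, 3 on each side of each gene, 9 were in the count table, 7 passed the filter and 0 had an adjusted p under 0.05 in edgeR's quasi-likelihood test or in DESeq2 (0 at an unadjusted p under 0.05 with either, and DESeq2 gave no adjusted p for 2). *Tmem63b*, on the same strand and 846 bases upstream of *Capn11*, averaged 149 ± 3.44 CPM in control and 145 ± 13.7 CPM in exposed brains (SD, n = 4), a log2 difference of -0.04 ± 0.07 (SE). *Slc29a1*, the nucleoside transporter gene 30598 bases downstream, differed by 0.13 ± 0.09 (SE) and *Mrpl14* by 0.04 ± 0.12 (SE) on the log2 scale, neither past the test. *Mymx*, which encodes a myoblast fusion peptide, and the antisense gene *Gm16172* had at most 3 and 2 reads in a brain, and *Gm25008* had 0 in each. Beside *Uts2b*, *Ostn*, 2110 bases away on the opposite strand, had at most 6 reads in a brain, with a log2 difference of 0.20 ± 0.98 (SE). *Ccdc50*, 18630 bases upstream on the opposite strand, averaged 204 ± 7.91 against 203 ± 10.2 CPM (SD, n = 4), a log2 difference of -0.01 ± 0.06 (SE).

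**Figure D4:**
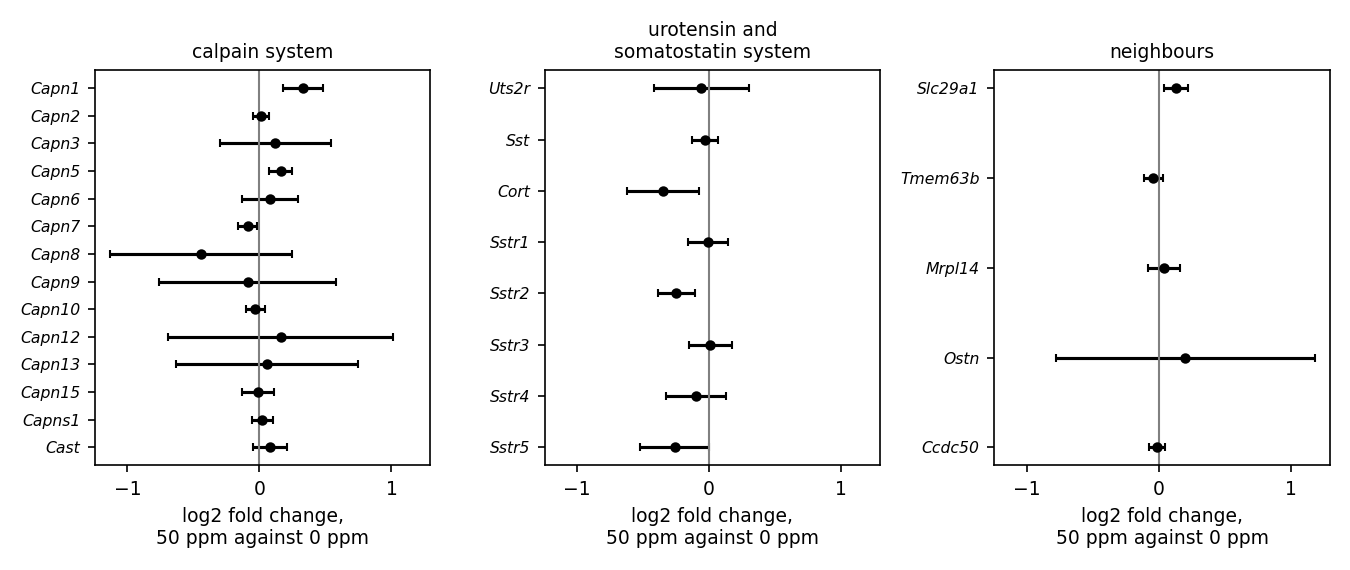
Log2 fold change between 50 ppm and 0 ppm from edgeR, with its standard error as a bar, for the genes of the calpain system, of the urotensin and somatostatin system and for the neighbours of *Capn11* and *Uts2b* that had more than 3 reads in a brain. None of the 27 genes passed an adjusted p of 0.05, and the medians of the 3 panels are 0.04, -0.08 and 0.04.

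Markers of brainstem and spinal cord differed between brains. The summed CPM of 10 such genes, led by the glycine transporter gene *Slc6a5*, was 9.93, 16.1, 44.3 and 43.4 without Cd and 90.2, 56.7, 40.4 and 51.3 with Cd. Of these, 0 passed the adjusted threshold in edgeR or DESeq2, 5 had an unadjusted p under 0.05 in edgeR and 1 in DESeq2, where 3.75% and 2.81% of all genes did, and their median log2 fold change was 0.95. In 0 ppm replicates 3 and 4 the sum was above that of 50 ppm replicate 3. *Capn11* had 3 and 4 reads there against 29, and *Uts2b* 2 and 3 against 7. With the mean log2 CPM of these markers as a covariate, the fitted log2 fold change was 3.17 for *Capn11* and 2.58 for *Uts2b*, and without it 3.16 and 2.58. With 0 ppm replicates 1 and 2 left out together, an alternative chosen after the data had been seen, the ratio of mean CPM was 7.95 for *Capn11* and 6.11 for *Uts2b*. Beyond these values, which use the reads that chose both genes, the part of brainstem and spinal cord content in the result was not tested.

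Cholinergic motor neuron markers, 12 genes with *Isl1*, *Prph* and *Slc5a7* the most counted, summed to 28.8, 27.2, 54.0 and 46.4 CPM in the control brains and 54.5, 59.0, 42.7 and 52.9 CPM in the exposed brains. Of the 10 that passed the filter, 0 passed the adjusted threshold in edgeR or DESeq2, with 7 at an unadjusted p under 0.05 in edgeR and 6 in DESeq2 (the same shares of all genes apply), and their median log2 fold change was 0.95. The marker *Slc18a3* was at 0 in all 8 brains, which allows up to 3 reads in each, and overlap with other genes was not examined for it. Its partner *Chat*, the enzyme gene for acetylcholine, had 11 to 24 reads at 0 ppm and 19 to 32 at 50 ppm. *Slc5a7* had 182 to 303 and 251 to 367 reads. The order of *Uts2b* within the exposed brains and that of the motor neuron sum shared their lowest brain, 50 ppm replicate 3. In 0 ppm replicate 3 the sum was 54.0 CPM with 2 reads of *Uts2b*, but 806 reads there were of *Isl1*. *Isl1* averaged 20.4 ± 5.59 CPM in control and 17.3 ± 2.19 CPM in exposed brains (SD, n = 4). It was lower with Cd, whereas 8 of the 10 markers had a positive log2 fold change, so the sum leans on a gene unlike most of the list. Beyond these values, the part of motor neuron content in the result was not tested.

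**Figure D5:**
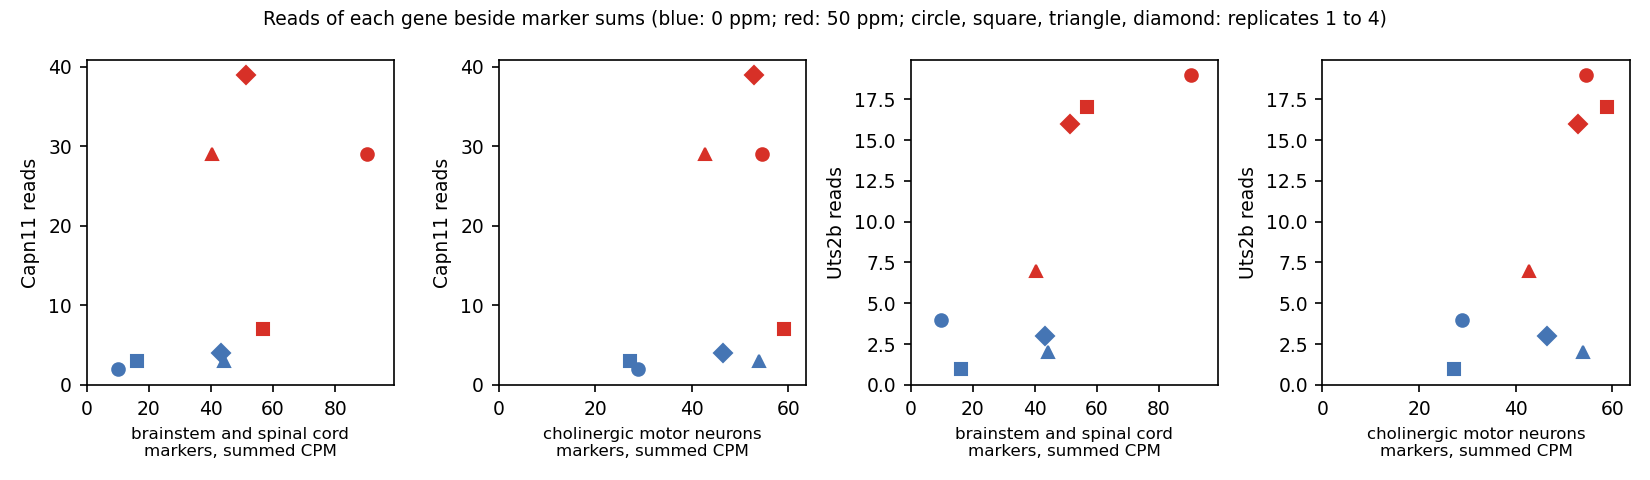
Reads of *Capn11* and *Uts2b* in each brain (y axis) against the summed CPM of brainstem and spinal cord markers and of cholinergic motor neuron markers (x axis), with blue for 0 ppm, red for 50 ppm and a marker shape for each replicate. 0 ppm replicates 3 and 4 lie among the exposed brains on the x axis and hold 2 to 4 reads of either gene, and the exposed brains hold 7 to 39. The motor neuron sum leans on *Isl1*, which was lower with Cd, unlike most of its list.

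Of 14 genes of spermatogenic cells, in which *Capn11* is known to be transcribed, *Prm1*, *Prm2*, *Tnp1*, *Tnp2* and *Pgk2* were at 0 in all 8 brains. Others of the list were counted in each brain. *Acr* had 90 to 130 reads at 0 ppm and 96 to 108 at 50 ppm, *Ddx4* 30 to 39 and 25 to 34, and *Dazl* 14 to 39 and 14 to 32. At 3.96 and 3.90 CPM (means, n = 4), *Acr* was the largest part of the sum. The sum of the list was 6.01 to 8.26 CPM at 0 ppm and 6.42 to 7.46 CPM at 50 ppm, and 0 of the 8 that passed the filter had an unadjusted p under 0.05 in edgeR or DESeq2, with 0 past the adjusted threshold. Forebrain markers, which check the labelled tissue, summed to 453 to 872 CPM in the controls and 600 to 738 CPM in the exposed brains. Skeletal muscle genes summed to 18.4 to 20.7 and 16.6 to 19.9 CPM and red blood cell genes to 127 to 311 and 99.2 to 402 CPM.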

How the data were processed

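RNA-seq of 8 whole brains, 4 per dose, was analysed. The authors trimmed the reads, aligned them with STAR to the C57BL/6J (GRCm38) and CAST/EiJ genomes, counted them per gene with htseq-count, and deposited raw read counts without normalization. Both references came from Ensembl, and the versions of these tools and the strand setting are not given in the sources used here. Replicates were numbered in accession order. Genes at 0 in more than 5 of 8 libraries were left out, libraries were normalized by TMM, and doses were compared with glmQLFit and glmQLFTest of edgeR 4.0.16 (R 4.3.3), with Benjamini-Hochberg adjustment over all genes and a threshold of 0.05. Standard errors were derived from the F statistic. Symbols matched 49326 of 49585 identifiers, and exon lengths came from GENCODE for GRCm38. The members, gene lists and tests were chosen with earlier results of these data known. Genes named were the members, the 2 systems, the neighbours, the 5 closest profiles and the leading markers; *Hoxb7*, *Hoxb8* and *D630023F18Rik* were named after their values had been seen. DESeq2 1.42.0, other filters, size factors, a marker covariate and each library left out were the alternatives. On simulated counts of 22616 genes with 200 changed in this comparison, edgeR called 95.5% of those changed. The changed genes were drawn only from genes of higher mean CPM than *Capn11* and *Uts2b*. This share therefore does not apply to genes of so low a count. Figures used matplotlib 3.10.9.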

Additional observations from a re-analysis of the deposited data

Results flagged for a closer look

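Within a dose, the highest or lowest brain was tested for a gap to the others with Dixon's criterion in 64 sets of 4 values, of which chance flags about 1 in 20, and 7 stood apart. Neither *Capn11* nor *Uts2b* was among them. In the calpain system, *Capn15* was lowest in 0 ppm replicate 3 at 29.8 CPM (39.5 to 40.7 in the others), *Capns1* in 50 ppm replicate 3 at 88.4 CPM (95.5 to 96.7) and *Cast* in 50 ppm replicate 4 at 7.28 CPM (9.24 to 9.37). *Sstr4* was highest in 50 ppm replicate 1 at 4.10 CPM (2.60 to 2.81 in the others). *Uts2* in 0 ppm replicate 4 (0.0774 CPM) and *Mymx* and *Gm16172* in 0 ppm replicate 3 (0.0327 CPM each) stood apart only because the other 3 controls had 0 reads, and these values are 1 or 2 reads.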

How the results depend on the processing

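The ratio of mean CPM kept its direction and moved by less than the spread between exposed brains in all 12 alternatives for *Capn11* and *Uts2b*. Both genes were selected on these reads and their dose groups do not overlap, so leaving out a library could not reverse the direction. Dropping a single exposed brain can also shift the mean of its group only by less than that spread. The stability of the ratio is therefore a description and no test of the difference. With each library left out in turn the ratio lay between 7.08 and 11.6 for *Capn11* and between 5.23 and 7.61 for *Uts2b*. Requiring 10 counts in 4 libraries dropped both genes, since each had only 3 such brains. Over all genes 4 were called, against 52 without any filter on low counts, 2 with this stricter one, 18 with DESeq2, 1 with the marker covariate, 7 without 0 ppm replicates 1 and 2 together, and 2 to 20 with 1 library left out (20 without 0 ppm replicate 3 and 8 without 50 ppm replicate 3); the cause was not tested. The counts of 0 for the calpain, urotensin and neighbouring genes stayed at 0 in all 14 alternatives. No paired analysis was possible because the labels give no replicate numbers. Depth limits what can be said of the controls, which had 1 to 4 reads of either gene.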
